A study of Mus musculus with 12 samples.

Results

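Small nucleolar RNA (snoRNA) genes were examined in quadriceps muscle of 12 dystrophic mice. They were found as the transcript clusters (probe groups summarised as 1 value) that the platform annotation pairs with exactly 1 symbol starting with Snord or Snora, with the brightest cluster kept per symbol. This gave 60 genes from 62 clusters, among 30086 symbols tested: 43 of the C/D box class (Snord) and 17 of the H/ACA box class (Snora). A further 42 clusters list a snoRNA symbol next to other symbols and were not used here. All mice were 6-week-old males of the genotype utrn+/-;mdx on C57BL/10, so every group lacks dystrophin through the mdx allele and carries 1 mutant copy of the utrophin gene. Groups of 3 mice, each on its own array, received prednisolone at 1.5 mg/kg per day in drinking water, pellets supplying spironolactone at 100 mg/kg and lisinopril at 20 mg/kg daily, pellets supplying eplerenone at 200 mg/kg and the same lisinopril dose daily, or no drug with normal chow. Drugs were given from 4 to 6 weeks of age. Neither healthy mice nor mice on drug-free pellets are among these samples. Prednisolone is a glucocorticoid, lisinopril inhibits angiotensin-converting enzyme, and spironolactone and eplerenone are steroidal antagonists of the mineralocorticoid receptor.

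snoRNAs are short nucleolar RNAs that pair with ribosomal RNA and direct its chemical modification. C/D box snoRNAs guide ribose methylation by the enzyme fibrillarin (Fbl), and H/ACA box snoRNAs guide the conversion of uridine to pseudouridine by dyskerin (Dkc1). A few, such as Snord118 (U8), Snord13 (U13), Snord14a (U14) and Snora73b (U17), serve in cutting the ribosomal RNA precursor. In mammals most lie in introns of other genes, many of them genes for ribosomal proteins and translation factors, and are trimmed out of the spliced intron.

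In the gene annotation (GRCm38.p6) 57 of the 60 genes lay inside another gene, 49 of them inside a protein-coding gene and 8 inside long non-coding RNA genes only. Ribosomal protein genes held 19. Snord118, Snord13 and Snord89 lay in none, and 6 genes lay within 2 overlapping genes. An intronic snoRNA is made from its host's transcript, so the promoter of the host stands for that of the snoRNA. Promoters below are from RefSeq (GRCm38.p6), 250 bases before to 50 bases after the start, and capitals mark an E-box (CACGTG, searched on both strands), the site that Myc and related factors bind. They are shown because Tsr1 and Srr both hold the 1 snoRNA gene that passed a test, and because Ncl holds 1 member of each class. Tsr1 and Srr lie on opposite strands, so that snoRNA can be trimmed from only 1 of them. Which of them it is was not determined here.
Tsr1 promoter (chr11:74897830-74898129, plus strand): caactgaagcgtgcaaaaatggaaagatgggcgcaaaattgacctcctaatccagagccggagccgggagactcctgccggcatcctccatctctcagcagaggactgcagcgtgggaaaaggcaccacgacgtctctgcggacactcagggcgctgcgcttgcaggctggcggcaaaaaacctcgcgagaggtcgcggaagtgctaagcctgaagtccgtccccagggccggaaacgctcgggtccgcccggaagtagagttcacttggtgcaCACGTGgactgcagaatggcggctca
Srr promoter (chr11:74925899-74926198, minus strand): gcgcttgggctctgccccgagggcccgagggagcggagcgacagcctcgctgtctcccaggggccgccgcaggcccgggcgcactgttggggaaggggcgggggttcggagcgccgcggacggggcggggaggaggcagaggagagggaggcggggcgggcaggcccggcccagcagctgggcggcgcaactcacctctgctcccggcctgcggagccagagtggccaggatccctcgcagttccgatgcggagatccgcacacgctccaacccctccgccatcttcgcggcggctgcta
Ncl promoter (chr1:86359406-86359705, minus strand): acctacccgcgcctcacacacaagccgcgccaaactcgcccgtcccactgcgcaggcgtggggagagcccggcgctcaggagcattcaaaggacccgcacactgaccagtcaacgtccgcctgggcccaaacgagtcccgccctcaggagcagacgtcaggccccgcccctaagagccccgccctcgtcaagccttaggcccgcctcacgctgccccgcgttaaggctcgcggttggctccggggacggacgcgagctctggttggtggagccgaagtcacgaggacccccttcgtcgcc
The E-box occurred once in the Tsr1 window, at bases 275 to 280, and in neither the Srr nor the Ncl window. It was found in 11 of 49 promoters (22.4%) of the 46 host genes with a listed promoter. Of all 32851 promoters of the same length 7.15% held it. Strand was not considered in placing snoRNA genes, so these 46 can include overlapping genes from which no snoRNA is trimmed. The half-site AGAACA, which glucocorticoid and mineralocorticoid receptors share, was in none of the 3 windows, in 7 of the 49 host promoters (14.3%) and in 19.0% of all promoters, both strands searched. These matches describe letters only.

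Signal levels are deposited log2 values, and because clusters differ in their probes the order of signals between genes is not an order of RNA amounts. C/D box genes had a median signal of 9.71 over the 12 arrays (lowest 3.79, highest 17.74), and H/ACA box genes a median of 9.46 (lowest 4.19, highest 14.22). The median of all 30412 tested clusters was 5.76, and 41 of 43 C/D box and 16 of 17 H/ACA box genes lay above it. The C/D box class reached higher: 17 of its genes had a signal above 12 and 4 above 16, compared with 3 and 0 H/ACA box genes. When the tested clusters were cut into 3 equal ranges of signal, 50 of the 60 fell in the highest range, 7 in the middle and 3 in the lowest.

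**Figure D1:**
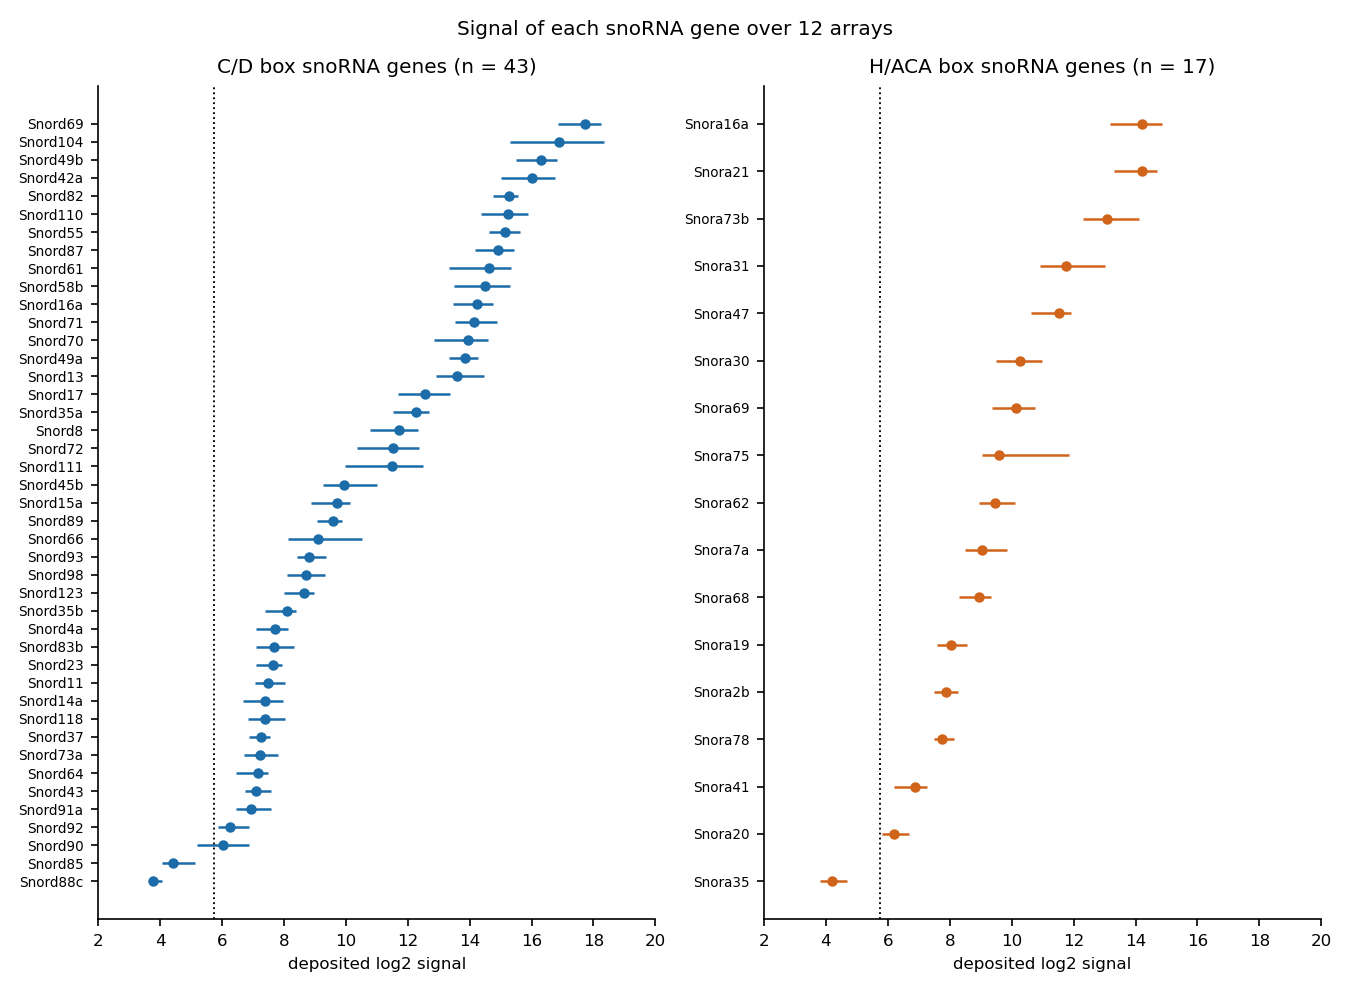
Mean deposited log2 signal (points) and the range over 12 arrays (lines) for 43 C/D box genes (left) and 17 H/ACA box genes (right), with the median of all tested clusters (5.76) as a dotted line. Signals run from 3.79 for Snord88c to 17.74 for Snord69 on the left, and from 4.19 for Snora35 to 14.22 for Snora16a on the right.

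Snord69, which lies in the gene of the nucleolar GTPase Gnl3, was the brightest C/D box gene at 17.74. It was followed by Snord104 (16.89), Snord49b (16.32), Snord42a (16.01, in the ribosomal protein gene Rpl23a) and Snord82 (15.27, in Ncl). Among H/ACA box genes Snora16a (14.22, in the non-coding gene Snhg12), Snora21 (14.22, in Rpl23), Snora73b (13.09, in Snhg3), Snora31 (11.77, in Tpt1) and Snora47 (11.52, in Zbed3) were brightest. The dimmest C/D box genes were Snord88c (3.79), Snord85 (4.42) and Snord90 (6.04, in Rc3h2). At the low end of the H/ACA box class were Snora35 (4.19), Snora20 (6.20, in Tcp1) and Snora41 (6.88, in Eef1b2). Snora35 lies in Htr2c, a serotonin receptor gene of the brain that itself had a signal of 4.55, and 8 neuron markers had a median of 4.63 in this tissue. Markers of skeletal muscle fibres, the labelled tissue, had a median of 19.42 over 10 genes. Signals of the snoRNA gene and of the gene around it showed no linear relation across 36 pairs in which both were measured (Pearson r = 0, a description over genes of the same arrays), and the snoRNA was the brighter in 19.

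Genes from the same host differed in signal. Rpl23a held Snord42a at 16.01 and Snord4a at 7.73, Nop58 held Snord70 at 13.95 and Snord11 at 7.48, and the non-coding gene 2410006H16Rik held Snord49b at 16.32 and Snord49a at 13.85. Rpl3 held Snord43 at 7.10 and Snord83b at 7.68. Snord118 and Snord58b were each paired with 2 clusters. The Snord58b clusters differed by -0.02 to 0.05 in each array, so they count as 1 measurement. The brighter one, used here, has an identifier that numbers chromosome 14 where the annotation places Snord58b on chromosome 18 inside Rpl17, and for the other 59 genes both chromosomes were the same. The Snord118 clusters were 2.19 to 3.77 apart. The dimmer one, at 4.53 and not used here, has an identifier that numbers chromosome 19 where the annotation places Snord118 on chromosome 11.

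Replicates varied more for snoRNA genes than for most clusters. The residual SD within groups had a median of 0.35 for C/D box and 0.33 for H/ACA box genes, against 0.16 over all tested clusters. Other short RNA varied alike. In the highest of the 3 equal ranges the median was 0.37 for other clusters annotated as snoRNA and 0.32 for small nuclear RNA clusters. The snoRNA genes there had 0.35 and all tested clusters 0.16. The steadiest member was Snord88c, the dimmest, with 0.10, and the most variable was Snord104 with 0.59.

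Much of this spread was shared between genes of an array. Setting each gene against its own mean over 12 arrays, the median C/D box deviation was 0.23, 0.05 and 0.28 in the prednisolone arrays, -0.58, -0.31 and 0.28 in the spironolactone plus lisinopril arrays, -0.06, -0.10 and 0.17 in the eplerenone plus lisinopril arrays and 0.05, -0.12 and 0.22 in the untreated arrays. For H/ACA box genes the median was -0.18, 0.00 and 0.33 with prednisolone, -0.51, -0.34 and 0.23 with spironolactone plus lisinopril, 0.02, -0.21 and 0.01 with eplerenone plus lisinopril, and 0.14, -0.01 and 0.45 in untreated mice. Spironolactone plus lisinopril arrays 1 and 2 stood apart on the low side in both classes: 8 of 60 genes lay above their own mean in each of them and 45 of 60 in array 3 of the same group. Results for this group are therefore also given without arrays 1 and 2. The 915 other clusters annotated as small nuclear RNA were low in these arrays (-0.31 and -0.34, against 0.10 in array 3). They were also low in eplerenone plus lisinopril array 2 (-0.30) and prednisolone array 1 (-0.19). In the remaining treated arrays they were at 0.02 to 0.16. All 3 untreated arrays were higher for them, at 0.19, 0.28 and 0.37. The 18491 protein-coding clusters were at -0.02, -0.02 and 0.00 in the spironolactone plus lisinopril arrays. Whether RNA recovery or hybridization of short RNA had a part in this was not tested.

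**Figure D2:**
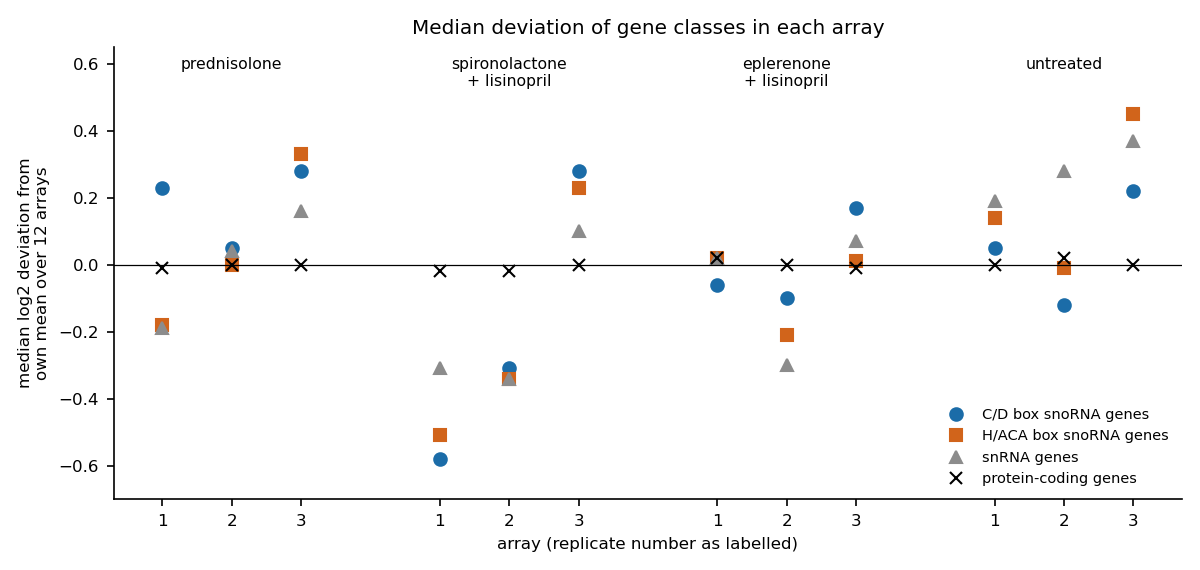
Median log2 deviation from each gene's own mean over 12 arrays (vertical axis) in every array (horizontal axis, replicate numbers as labelled) for C/D box genes (circles, n = 43), H/ACA box genes (squares, n = 17), snRNA clusters (triangles, n = 915) and protein-coding clusters (crosses, n = 18491). The 2 snoRNA classes are lowest in spironolactone plus lisinopril arrays 1 (-0.58 and -0.51) and 2 (-0.31 and -0.34), while protein-coding genes stay between -0.02 and 0.02.

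The classes moved together across these arrays, and their difference was small. The C/D box median minus the H/ACA box median averaged 0.13 ± 0.24 with prednisolone, 0.00 ± 0.07 with spironolactone plus lisinopril, 0.06 ± 0.12 with eplerenone plus lisinopril and -0.14 ± 0.07 in untreated mice (SD, n = 3 arrays each). Its values were 0.40, 0.04 and -0.05 in the prednisolone arrays, against -0.09, -0.11 and -0.23 in the untreated arrays, so these groups did not overlap, but the prednisolone mean rests mostly on array 1. No test was made of this difference, since the classes were compared with earlier results of these data known.

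Prednisolone against no treatment asked how glucocorticoid treatment changed dystrophic muscle. Of the snoRNA genes 1 passed, Snord91a, which fell, and the other 59 did not pass. That is 1 of 43 C/D box and 0 of 17 H/ACA box genes (limma, Benjamini-Hochberg adjusted p under 0.05 over 30412 clusters), where 6.39% of all tested clusters were called and 3.17% were called lower. At an unadjusted p under 0.05 there were 9 C/D box genes, 6 of them higher and 3 lower, and 3 H/ACA box genes, all lower, beside 21.6% of all tested clusters (10.9% higher, 10.8% lower). The median log2 difference was 0.12 for C/D box genes, -0.22 for H/ACA box genes and -0.01 for all tested clusters. C/D box genes were above 0 in 26 of 43 cases and H/ACA box genes below 0 in 12 of 17, with 52.7% of all tested clusters below 0. Groups did not overlap for 18 C/D box genes (41.9%; 13 higher, 5 lower) and 3 H/ACA box genes (17.6%; 1 higher, 2 lower), and for 26.7% of all tested clusters (13.4% higher, 13.3% lower). This share rises with signal. In the highest of the 3 equal ranges it was 44.4% for C/D box genes, 21.4% for H/ACA box genes and 42.1% for all tested clusters. The C/D box share was thus near that of clusters of like signal. Snord111 was higher by a fold of 2 or more, the size named in the study design, and Snora75 was lower by it, as were 0.523% and 1.17% of all tested clusters (1.69% in either direction).

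Snord91a, a C/D box snoRNA within both Tsr1, a ribosome assembly factor gene, and Srr, the serine racemase gene, had signals of 6.76, 6.85 and 7.02 with prednisolone, 6.90, 6.71 and 6.68 with spironolactone plus lisinopril, 6.76, 6.85 and 6.46 with eplerenone plus lisinopril, and 7.59, 7.31 and 7.29 in untreated mice. All 9 treated arrays lay below all 3 untreated arrays, and the treated groups overlapped one another. It fell by 0.52 ± 0.13 with prednisolone (log2, SE; limma adjusted p = 0.0347). The difference was -0.63 ± 0.13 (adjusted p = 0.112) with spironolactone plus lisinopril and -0.70 ± 0.13 (adjusted p = 0.104) with eplerenone plus lisinopril. These comparisons share the untreated arrays, and more clusters were called under prednisolone, so a smaller difference passed there and not elsewhere. The prednisolone call held in 15 of 25 alternatives and was lost without untreated array 1, 2 or 3 (adjusted p = 0.075, 0.0702 and 0.064), without prednisolone array 1 or 2 (adjusted p = 0.125 and 0.118), without spironolactone plus lisinopril arrays 1 and 2 (adjusted p = 0.0572) and without untreated arrays 2 and 3 (adjusted p = 0.13). It was also lost with only the arrays of the 2 groups (adjusted p = 0.0782), with all clusters of the deposited file tested (adjusted p = 0.0601) and with the replicate number as a block (adjusted p = 0.0557), with the difference between -0.43 and -0.71 throughout. In the same comparison Tsr1 was at -0.25 ± 0.15 (adjusted p = 0.384) and Srr at 0.26 ± 0.11 (adjusted p = 0.207), neither past the threshold.

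Snord93, in the non-coding genes 2700038G22Rik and Gm42228, was also brightest in untreated mice. It had signals of 8.67, 8.68 and 8.92 with prednisolone, 8.50, 8.64 and 8.66 with spironolactone plus lisinopril, 8.97, 8.41 and 8.53 with eplerenone plus lisinopril, and 9.16, 9.10 and 9.37 in untreated mice. Again every treated array lay below every untreated one. The differences from untreated were -0.46 ± 0.14 (adjusted p = 0.0843), -0.61 ± 0.14 (adjusted p = 0.151) and -0.58 ± 0.14 (adjusted p = 0.184), none past the threshold.

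Snora75 showed the largest differences from untreated among H/ACA box genes. Its signals were 9.16, 9.53 and 9.41 with prednisolone, 9.13, 9.26 and 9.22 with spironolactone plus lisinopril, 9.37, 9.10 and 9.03 with eplerenone plus lisinopril, and 9.74, 10.38 and 11.86 in untreated mice. The treated groups were tight and overlapped, and the untreated arrays spread over 2.12 log2 units above them. Differences were -1.29 ± 0.40 (adjusted p = 0.0811) with prednisolone, -1.46 ± 0.40 (adjusted p = 0.176) with spironolactone plus lisinopril and -1.50 ± 0.40 (adjusted p = 0.212) with eplerenone plus lisinopril. The prednisolone value was -1.75 without untreated array 1 (adjusted p = 0.0123, past the threshold), -0.69 without untreated array 3, and -0.37 without untreated arrays 2 and 3. Those 2 arrays also carried high neutrophil markers: 8 genes had a median signal of 6.69 to 6.94 in the prednisolone arrays, 5.94 to 7.18 and 5.49 to 6.14 in the combination arrays, and 6.64, 9.39 and 9.07 in untreated arrays 1, 2 and 3. Of these 8 markers 1 was called lower with prednisolone, as were 5 of 10 macrophage markers. The part of these cells in the Snora75 values was not tested, and in whole muscle fewer cells of a type cannot be told apart from less RNA per cell.

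The gene around Snora75 is Ncl, which encodes the nucleolar protein nucleolin, and the same gene holds the C/D box gene Snord82. Ncl had signals of 11.83, 11.79 and 12.20 with prednisolone and 12.12, 12.20 and 12.19 in untreated mice. Snord82 had 15.52, 15.29 and 15.54 with prednisolone and 15.31, 15.31 and 15.36 in untreated mice. Both overlapped between the groups. Ncl was at -0.23 ± 0.16 and Snord82 at 0.12 ± 0.20, where Snora75 was at -1.29 ± 0.40.

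Other genes near the threshold with prednisolone went both ways. Snord110, within Nop56, a core protein gene of C/D box particles, had 15.90, 15.70 and 15.76 with prednisolone and 15.04, 14.89 and 15.07 in untreated mice, a difference of 0.79 ± 0.23 (adjusted p = 0.0745). Snord111, in the splicing factor gene Sf3b3, had 12.33, 12.28 and 12.49 with prednisolone and 11.20, 10.92 and 11.92 in untreated mice (1.02 ± 0.37, adjusted p = 0.133). In both genes the prednisolone arrays lay above all untreated arrays. Snord71 (0.64 ± 0.25), Snord58b (0.72 ± 0.30), Snord14a (0.55 ± 0.22) and Snord123 (0.37 ± 0.16) also had every prednisolone array above the untreated ones, with adjusted p of 0.162 to 0.215.

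On the lower side, Snora69, in the ribosomal protein gene Rpl39, had 9.55, 9.94 and 9.88 with prednisolone and 10.58, 10.37 and 10.75 in untreated mice (-0.78 ± 0.23, adjusted p = 0.0741). Snord118, needed for maturation of the large ribosomal subunit RNAs, had 6.85, 6.91 and 7.53 with prednisolone and 7.80, 7.96 and 8.03 in untreated mice (-0.83 ± 0.26, adjusted p = 0.0821). The prednisolone arrays were below all untreated arrays in both. The second, dimmer Snord118 cluster, with a signal of 4.53 and the chromosome 19 identifier, was at -0.11. Snora41 was at -0.47 ± 0.21 (adjusted p = 0.221) with groups that overlapped. Snord110 passed in 5 of 25 alternatives, Snora69 in 4 and Snord118 in 3. Of the genes known for cutting ribosomal RNA, Snord13 was at -0.68, Snora73b at -0.34 and Snord14a at 0.55, none past the threshold.

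**Figure D3:**
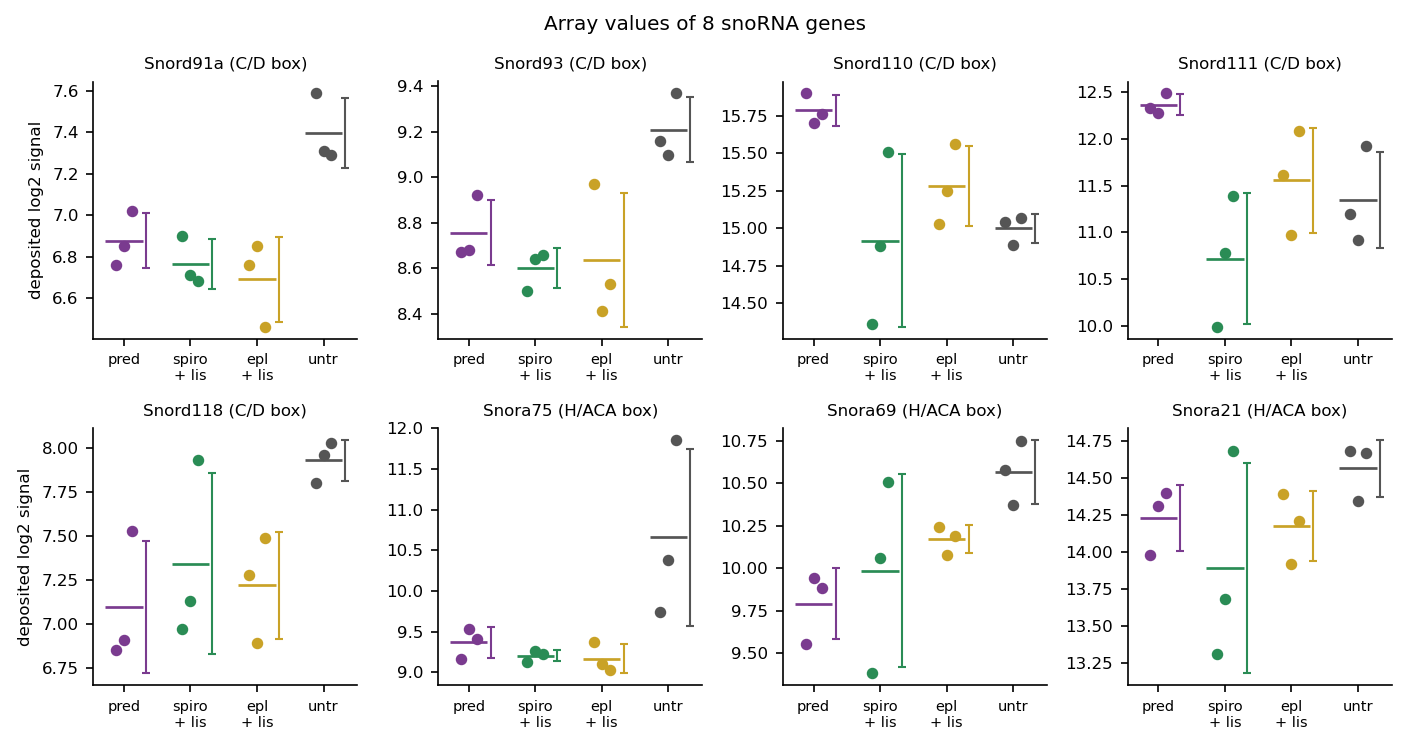
Deposited log2 signal (vertical axes, each panel with its own scale that does not start at 0) in every array (points) of the prednisolone (pred), spironolactone plus lisinopril (spiro + lis), eplerenone plus lisinopril (epl + lis) and untreated (untr) groups for 8 snoRNA genes. Horizontal lines are group means and bars the SD (n = 3). For Snord91a all treated arrays lie between 6.46 and 7.02, below the untreated arrays at 7.29 to 7.59.

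Spironolactone plus lisinopril against no treatment gave lower snoRNA signals almost throughout. Of these, 0 of 43 C/D box and 0 of 17 H/ACA box genes passed (limma adjusted p, where 0.0822% of all tested clusters were called). At an unadjusted p under 0.05 there were 10 and 5, all lower, beside 16.2% of all tested clusters (9.84% lower). Medians were -0.29 for C/D box genes, -0.44 for H/ACA box genes and -0.04 for all tested clusters. Below 0 lay 40 of 43 and 15 of 17 genes, against 59.2% of all tested clusters. This was not particular to these genes. Of the 915 small nuclear RNA clusters 91.7% lay below 0, with a median of -0.44. Of the 893 other clusters annotated as snoRNA 69.1% did, with a median of -0.15. Without arrays 1 and 2 of this group, which leaves 1 array, the C/D box and H/ACA box medians were 0.11 and 0.03. Those 2 arrays were chosen because they were low, so leaving them out was bound to raise the medians. With any 1 of the 12 arrays left out the 2 class medians stayed below 0, at -0.42 to -0.18 and -0.74 to -0.26. Weights estimated over all tested clusters, where a noisier array gets less, were 1.38, 1.19 and 0.626 for arrays 1, 2 and 3. The weight of array 3 was the lowest of the 12. Which arrays stand for this group was not tested. Only 4 C/D box (9.3%) and 2 H/ACA box genes (11.8%) had groups that did not overlap, compared with 20.4% of all tested clusters.

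After Snord91a, Snord93 and Snora75, the smallest p belonged to Snord104, with signals of 15.32, 16.30 and 17.19 with spironolactone plus lisinopril and 17.28, 17.11 and 18.34 in untreated mice. Its difference was -1.31 ± 0.41 (adjusted p = 0.195) and the groups overlapped. Without the low arrays 1 and 2 it was -0.39. For Snora31 (-0.88 ± 0.35), Snora69 (-0.58 ± 0.23), Snora21 (-0.67 ± 0.29) and Snora7a (-0.56 ± 0.24) adjusted p lay between 0.261 and 0.283. Snora21 had 13.31, 13.68 and 14.68 with the combination and 14.68, 14.34 and 14.67 in untreated mice, so its array 3 was level with the untreated arrays.

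Eplerenone plus lisinopril against no treatment also gave 0 of 43 and 0 of 17 genes past the limma threshold (0.0296% of all tested clusters were called). There were 5 and 1 at an unadjusted p under 0.05, all lower, beside 13.4% of all tested clusters (7.33% lower). Median differences were -0.04 for C/D box genes, -0.26 for H/ACA box genes and -0.03 for all tested clusters. In the H/ACA box class 15 of 17 genes were below 0, and in the C/D box class 24 of 43, beside 56% of all tested clusters. Apart from Snord91a, Snord93 and Snora75, the smallest p belonged to Snord92, in the ribosome assembly gene Wdr43. It had 5.86, 5.87 and 6.39 with eplerenone plus lisinopril and 6.41, 6.43 and 6.86 in untreated mice (-0.53 ± 0.17, adjusted p = 0.263), without overlap. Snora31 was at -0.65 ± 0.35 and Snora7a at -0.43 ± 0.24, with adjusted p of 0.445 and 0.466.

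The 2 combinations differ in their antagonist and also in its dose, 100 mg/kg of spironolactone against 200 mg/kg of eplerenone per day, so they cannot be read as a contrast of structures alone. No snoRNA gene passed between them (0 of 60 and 0 of all tested clusters, 0%, limma), with 5 C/D box and 0 H/ACA box genes at an unadjusted p under 0.05 and 4.49% of all tested clusters. Medians for spironolactone plus lisinopril minus eplerenone plus lisinopril were -0.32 and -0.14, and 0.27 and 0.34 without spironolactone plus lisinopril arrays 1 and 2. Snord37, in the elongation factor gene Eef2, had the smallest p: 6.87, 7.22 and 7.08 with spironolactone and 7.44, 7.16 and 7.55 with eplerenone (-0.33, 95% confidence interval -0.61 to -0.04, adjusted p = 0.998). Next were Snord123 (-0.38, -0.74 to -0.03) and Snord98 (-0.46, -0.90 to -0.02), each with overlapping groups. The median interval over the 60 genes reached 0.54 to either side, and for 13 of them it included a difference of 1 log2 unit or more in size.

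Compared with prednisolone, spironolactone plus lisinopril again had 0 of 60 past the threshold (0.822% of all tested clusters were called), with 17 C/D box and 2 H/ACA box genes at an unadjusted p under 0.05, all lower, beside 16.3% of all tested clusters (8.84% lower). Medians were -0.43 for C/D box genes, -0.32 for H/ACA box genes and -0.04 for all tested clusters, with 39 of 43 and 13 of 17 below 0, beside 58.9% of all tested clusters. Snord111 had 9.99, 10.78 and 11.39 with spironolactone plus lisinopril and 12.33, 12.28 and 12.49 with prednisolone (-1.65 ± 0.37, adjusted p = 0.0661), without overlap. Snord72, in Rpl37, was at -1.20 ± 0.31 (adjusted p = 0.0945) and Snord58b, measured on the chromosome 14 cluster, at -1.13 ± 0.30 (adjusted p = 0.0988). Without arrays 1 and 2 of the combination the values were -0.97, -0.39 and -0.31, and the class medians -0.04 and 0.12. For H/ACA box genes Snora16a was at -0.95 ± 0.31 (adjusted p = 0.173) and Snora30, in Srcap, at -0.72 ± 0.28 (adjusted p = 0.232).

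Eplerenone plus lisinopril against prednisolone likewise had 0 of 60 past the limma threshold (0.608% of all tested clusters were called), with 1 C/D box and 1 H/ACA box gene, both lower, at an unadjusted p under 0.05 beside 12.5% of all tested clusters (6.61% lower). They were Snord71 (-0.73 ± 0.25, adjusted p = 0.245) and Snora30 (-0.61 ± 0.28, adjusted p = 0.397), both without overlap of the groups. Medians were -0.19 and -0.13, against -0.01 for all tested clusters. Snord13 had the largest positive difference, 0.67 ± 0.32 (adjusted p = 0.42), with overlapping groups.

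Over all 4 groups the limma F-test called 1 of 43 C/D box genes, Snord91a (adjusted p = 0.0424), and 0 of 17 H/ACA box genes, where 1.93% of all tested clusters were called. At an unadjusted p under 0.05 it gave 10 and 2, beside 19.6%.

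Signal level was set beside these differences in 3 ranges: below 8, 8 to 12 and above 12. For prednisolone against untreated the C/D box medians were -0.06 (15 genes), 0.08 (11 genes) and 0.27 (17 genes), and 7, 7 and 12 of these genes were above 0. H/ACA box medians were -0.22 (5 genes), -0.19 (9 genes) and -0.33 (3 genes). All tested clusters had -0.01 in each range. Most bright C/D box genes thus had a difference above 0 with prednisolone, while the median of the 3 bright H/ACA box genes was below 0, and the 1 gene past the threshold had a signal of 6.93. For spironolactone plus lisinopril against untreated the C/D box medians were -0.22, -0.37 and -0.27 and the H/ACA box medians -0.09, -0.47 and -0.67, compared with -0.07, 0.07 and 0.01 for all tested clusters. Against prednisolone the same combination had C/D box medians of -0.14, -0.51 and -0.60 and H/ACA box medians of 0.10, -0.33 and -0.35, where all tested clusters had -0.06, 0.08 and -0.03. The highest of the 3 equal ranges of tested clusters holds 36 C/D box and 14 H/ACA box genes. For prednisolone against untreated 0 of these genes and 14.2% of all clusters of that range were called. The 2 shares are not alike in precision, as the median residual SD was 0.35 for these genes and 0.16 for all clusters there. That range also holds 195 other clusters annotated as snoRNA and 345 small nuclear RNA clusters. Their median residual SDs were 0.37 and 0.32, and 3.08% and 0.29% of them were called for prednisolone against untreated. In that comparison their medians were 0.28 and -0.38, with C/D box genes there at 0.19 and H/ACA box genes at -0.16. For spironolactone plus lisinopril against untreated their medians were 0.02 and -0.67, with the 2 snoRNA classes there at -0.28 and -0.49.

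**Figure D4:**
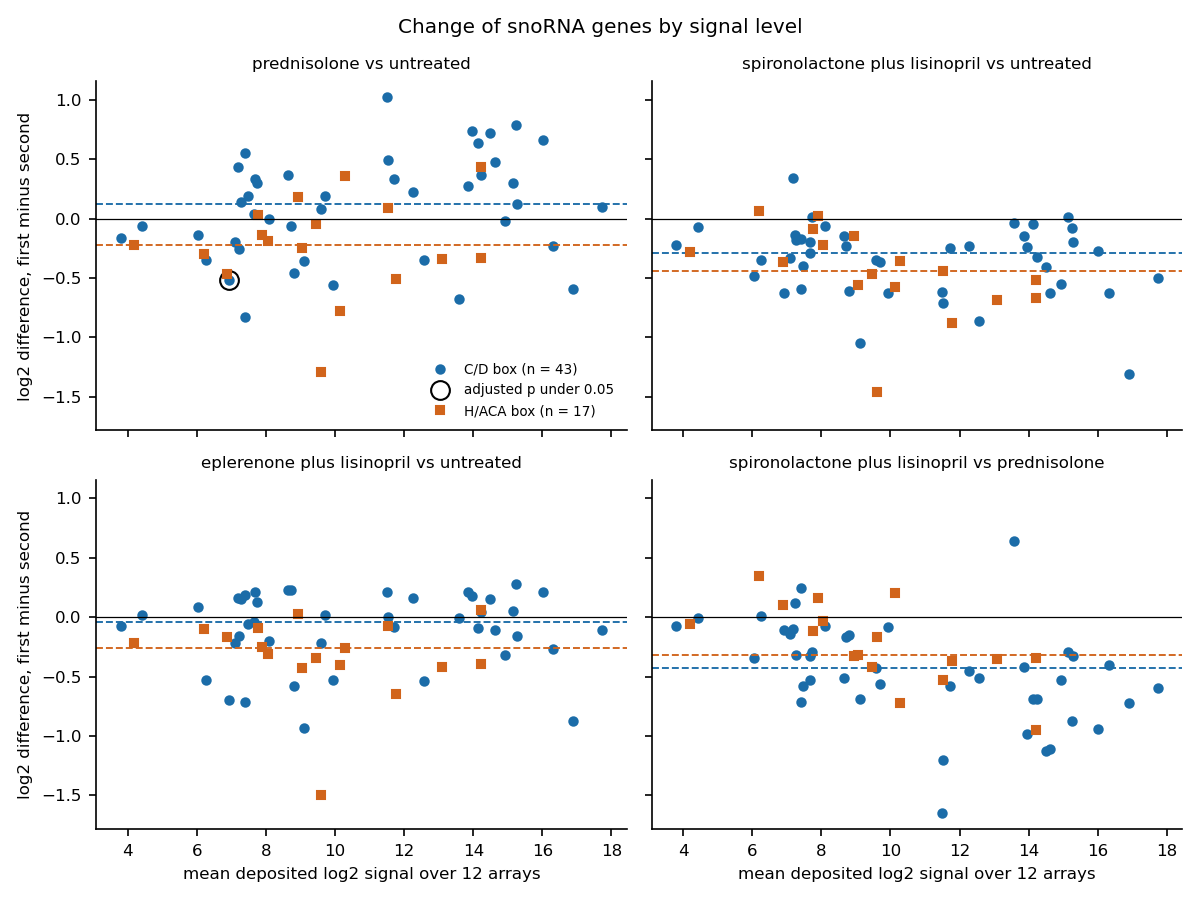
Log2 difference (vertical axes, first named group minus second) against mean deposited log2 signal over 12 arrays (horizontal axes) for C/D box (circles, n = 43) and H/ACA box (squares, n = 17) genes in 4 comparisons, with class medians as dashed lines. With prednisolone against untreated the medians are 0.12 and -0.22 and 1 gene, ringed, passed; with spironolactone plus lisinopril both medians are below 0, at -0.29 and -0.44 against untreated and -0.43 and -0.32 against prednisolone.

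Genes around the snoRNAs were set beside them. A host signal was measured for 32 snoRNA genes, 4 of which had 2 overlapping hosts measured, giving 36 pairs with 34 hosts. As strand was not considered, some of these hosts may only overlap the snoRNA gene. Of these hosts 0 passed limma's threshold in any of the 6 comparisons, where 0% to 6.39% of all tested clusters were called. At an unadjusted p under 0.05 there were 1 to 9 of the 34, where 4.49% to 21.6% of all tested clusters had such a p. With prednisolone against untreated there were 8, beside the 21.6%. Across the 36 pairs the Pearson r between the 2 log2 differences was -0.11 for prednisolone and -0.01 for spironolactone plus lisinopril against untreated, and -0.22 to 0.32 over all 6 comparisons, as a description over genes measured on the same arrays. The 2 differences had the same sign in 25 of 36 pairs in each treatment against untreated, in 20 between the combinations, and in 12 and 11 for spironolactone and eplerenone plus lisinopril against prednisolone. Such counts depend on how many differences lie below 0 on each side. With prednisolone against untreated 26 of the 34 hosts were below 0, beside 52.7% of all tested clusters, and the snoRNA in 19 of the 36 pairs. With spironolactone plus lisinopril against untreated 21 of the 34 hosts were below 0, and the snoRNA in 33 of the 36 pairs. For Nop58, which encodes another C/D box core protein, the difference with prednisolone was -1.02 ± 0.35 (adjusted p = 0.114), and its signals were 10.57, 10.57 and 11.29 with prednisolone and 11.12, 11.77 and 12.61 in untreated mice. Its snoRNA genes Snord70 and Snord11 were at 0.74 and 0.19. Sf3b3 was at -0.45 ± 0.13 (adjusted p = 0.0745) where its snoRNA gene Snord111 was at 1.02.

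**Figure D5:**
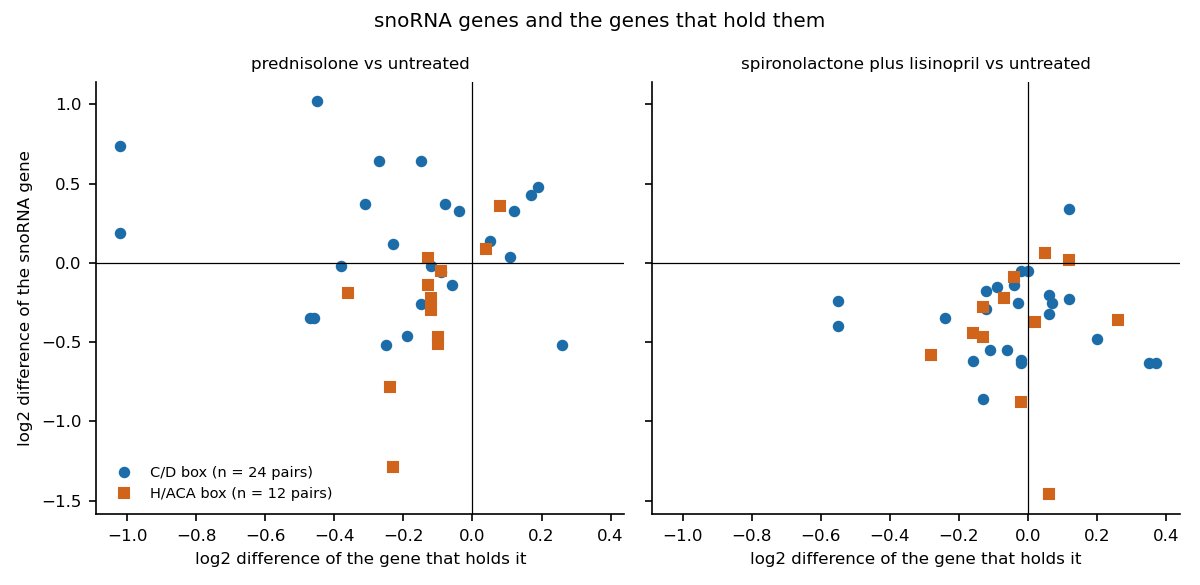
Log2 difference of a snoRNA gene (vertical axes) against that of the gene around it (horizontal axes) for 36 pairs (snoRNA genes inside 2 measured genes appear at both), C/D box as circles and H/ACA box as squares, with prednisolone against untreated on the left and spironolactone plus lisinopril against untreated on the right. The points form no common line, with r of -0.11 and -0.01, and the 2 leftmost circles on the left are the Nop58 pairs at -1.02.

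Proteins and partner RNAs of the pathway were followed in lists of 124 genes in all. With prednisolone against untreated 8 of them passed (6.45%, 5 lower), beside 6.39% of all tested clusters, and 34 had an unadjusted p under 0.05 (27.4%, 30 of them lower), beside 21.6%. With prednisolone 0 of 2 C/D box core protein genes (Nop58 and Fbl) and 0 of 4 H/ACA box core protein genes passed in limma (1 of each at an unadjusted p under 0.05). Nop10, an H/ACA box core protein gene, was at -0.27 ± 0.09 (adjusted p = 0.0922) and Dkc1 at 0.02 ± 0.09. Of 15 assembly factors 1 fell: Naf1, which helps to assemble H/ACA particles, averaged 9.56 with prednisolone and 10.11 in untreated mice, and fell by 0.55 ± 0.10 (adjusted p = 0.0122). None of 17 factors that trim or degrade snoRNAs passed (2 at an unadjusted p under 0.05), nor did any of 6 small Cajal body RNA genes, relatives that guide modification of spliceosomal RNA (3 at an unadjusted p under 0.05, median -0.59). Of 16 other small RNA genes 1 fell, Rpph1, the RNA of ribonuclease P, by 0.71 ± 0.18 (adjusted p = 0.0406). Ribosome synthesis genes had 2 of 35 lower, the transcription factor gene Myc, which fell by 1.79 ± 0.31 (adjusted p = 0.00943), and Dcaf13, a ribosomal RNA processing factor gene, which fell by 0.43 ± 0.11 (adjusted p = 0.0475). Among 22 known protein-coding snoRNA host genes, chosen as a list apart from the pairs above, Nap1l4 (0.34), Vwa8 (0.48) and Atp5b (0.32) rose and Rpl12 fell by 0.55, while 0 of 9 non-coding hosts passed (2 at an unadjusted p under 0.05; Snhg6 at -0.38, adjusted p = 0.0841). In each combination against untreated 0 of the 124 genes of these lists passed in limma, with 17 genes for spironolactone plus lisinopril (13.7%, beside 16.2% of all tested clusters) and 16 for eplerenone plus lisinopril (12.9%, beside 13.4%) at an unadjusted p under 0.05.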

How the data were processed

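One array per mouse was used, 12 in all, in 4 groups of 3 taken from the sample titles. Values were deposited by the authors on the log2 scale. The submitters' processing notes name RMA, Affymetrix Expression Console and Transcriptome Analysis Console. Neither software versions nor the build of the annotation were given in the sources used here. Across 65587 clusters the values run from 1.61 to 19.93, and in each array 1.27% to 1.34% lie above 16, the log2 ceiling of a scanner, so a rescaling is present that the notes do not describe. Per the labels, RNA was isolated with TRIzol, treated with DNase and cleaned on RNeasy columns, then amplified and labelled with the WT PLUS kit. Silica columns hold short RNA less well, and probes cannot tell a mature snoRNA from unspliced host RNA. Strand was not considered in placing snoRNA genes inside others, so Tsr1 and Srr, on opposite strands, both count as hosts of Snord91a.

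The platform annotation gave 30412 clusters a single symbol. limma 3.58.1 (R 4.3.3) estimated 4 group means from the 12 arrays together (moderated two-sided test, 8 residual and 2.94 prior degrees of freedom), with Benjamini-Hochberg adjustment over these clusters at 0.05. The number of arrays limits the precision, and with groups of 3 the smallest exact permutation p (two-sided) is 0.1. On simulated data of 30412 clusters with 200 changed by 1 log2 unit for prednisolone against untreated, 79.5% were recovered and 7.02% of calls were false. This recovery was not worked out for snoRNA genes alone, so it does not give their chance of being called. Their median residual SD was 0.35 (C/D box) and 0.33 (H/ACA box), against 0.16 over all tested clusters. The confidence interval for prednisolone against untreated reached a difference of 1 log2 unit or more in size for 22 of 60 snoRNA genes. The snoRNA genes, lists and comparisons were chosen with earlier results of these data known, so classes are described by counts and medians and have no test of their own. The genes named are, per comparison and class, the called genes (or else the 3 smallest p), the 5 brightest and 3 dimmest of each class, and a fixed list of which 25 of 62 were measured; 43 genes result, and others are named for their host or pattern after their values were seen. Replicate numbers are biological replicates in the labels and do not pair mice: deviations of arrays with the same number correlated at -0.24 to 0.16. Alternatives covered the dim clusters, the scaling, the eBayes prior, the arrays in the fit, array weights, a replicate block, the clusters tested, the choice of cluster and each array left out.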

Additional observations from a re-analysis of the deposited data

How the results depend on the processing

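Of 648 recomputed class counts and medians, 596 stayed within 1.5 times the main count or within 1 SD of the arrays' class medians. The difference of Snord91a, the only called gene, kept its sign throughout. Some class medians did change sign. With 1 array left out the C/D box median for eplerenone plus lisinopril against untreated ran from -0.17 to 0.04. Both class medians for spironolactone plus lisinopril against untreated changed sign without its arrays 1 and 2. Counts of called genes were small. For prednisolone against untreated, the count of 1 C/D box gene became 2 with dim clusters left out or with only the arrays of the 2 groups (Snord91a not among the 2 there), and 0 with all clusters of the table tested or without untreated arrays 2 and 3; 0 H/ACA box genes became 1 with dim clusters left out, with array weights or without spironolactone plus lisinopril arrays 1 and 2. For spironolactone plus lisinopril against prednisolone, 0 C/D box genes became 1 with dim clusters left out, 5 with array weights and 1 with the replicate block. The F-test's 1 C/D box gene became 0 with array medians made equal, with the replicate block, with all clusters tested, and without either pair of arrays. The replicate numbers pair no samples (3 of 12 arrays correlated best with their own number); with the replicate block Snord91a was at adjusted p = 0.0557, Snord118 at 0.0274 and Snord111, between spironolactone plus lisinopril and prednisolone, at 0.0491.

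Without the spironolactone plus lisinopril arrays 1 and 2 (chosen after seeing the data, with the lone array assumed to vary like the other groups), C/D and H/ACA box medians were 0.11 and 0.03 against untreated, 0.27 and 0.34 against eplerenone plus lisinopril and -0.04 and 0.12 against prednisolone. Snora75 was at -0.37 without untreated arrays 2 and 3, also chosen after seeing the data. With 1 array left out, C/D box calls ran from 0 to 4 for prednisolone, 0 to 2 for spironolactone plus lisinopril and 0 to 0 for eplerenone plus lisinopril against untreated, 0 to 7 for spironolactone plus lisinopril against prednisolone (7 without its array 3) and 0 to 8 in the F-test (8 without that array). H/ACA box calls ran from 0 to 1 against untreated in each treatment and in the F-test. Medians of H/ACA box genes for spironolactone plus lisinopril against untreated ran from -0.74 to -0.26. The causes of these moves were not tested.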
